A study of Arabidopsis thaliana with 4 samples.

Results

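Jasmonate synthesis and response genes were followed in the shoots of Arabidopsis thaliana, wild-type and php mutant. The set was fixed by gene identity and not by level, but it was chosen with earlier results of these data known. It has 8 entries, 6 given as probe sets of the ATH1 array and THI2.1 and JMT found by symbol. With the array name before the identifier, the 6 are ATH1.249052_at for PDF1.2, ATH1.252618_at for LOX2, ATH1.249208_at for AOS, ATH1.256017_at for JAZ1, ATH1.250292_at for JAZ10 and ATH1.245928_s_at for VSP1 and VSP2 together. These are 8 of 22746 plant probe sets on the array. A probe set is a group of short oligonucleotides that together measure a transcript. All 8 were among the 15922 probe sets tested, which leave out those with a mean log2 level up to 2.64 over the 4 arrays. The platform annotation names PDF1.2, THI2.1 and JMT. It does not list the other 5 probe sets, whose genes are those stated in the definition of the set and were not checked against an annotation here.

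Both groups were above-ground tissue of plants grown on soil for 14 days, and they differ by genotype: wild-type, and plants carrying php. The mutated gene, PHP, encodes a subunit of the PAF1 complex, which accompanies RNA polymerase II during transcript elongation. Neither the accession nor the php allele is given in the labels. Each genotype had 2 arrays, replicates I and II, each holding RNA from 3 independently derived samples, so the spread between arrays is a spread between pools. In pooled whole shoots, fewer cells of a type and less RNA per cell cannot be told apart. Levels are log2 values after GCRMA normalization by the authors, and a difference of 1 on that scale is 2-fold.

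Jasmonates are lipid-derived hormones that plants make after wounding, insect feeding and infection by fungi that kill their host tissue. In the chloroplast, lipoxygenases such as LOX2 oxidise linolenic acid and allene oxide synthase, AOS, turns the product into the precursor of the jasmonate ring. The chain is then shortened in peroxisomes by beta-oxidation. The active form, a conjugate of jasmonic acid with isoleucine, binds the receptor COI1 and leads to the destruction of JAZ proteins, which otherwise hold the MYC transcription factors in check. JAZ genes are themselves induced by the hormone, so their transcripts serve as early reporters of it. In leaves the MYC branch drives VSP genes, while a branch shared with ethylene drives the defensin gene PDF1.2, and the branches restrain each other.

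None of the jasmonate genes tested passed between genotypes. By level, 6 of the 8 entries had a higher mean in php than in wild-type and 2 a lower one. LOX2, AOS, JAZ10 and THI2.1 were higher on both php arrays than on either wild-type array, and the floor-level JMT was lower on both. JAZ1 and VSP1/VSP2 had higher means in php with overlapping arrays, and PDF1.2 was spread widely within wild-type. limma called 0 of the 8 at an adjusted p under 0.05, with 0 at an unadjusted p under 0.05 and adjusted p from 0.215 to 0.876. Over all probe sets tested it called 0.0314%, or 5, and 3856, or 24.2%, had an unadjusted p under 0.05. With any of the 4 arrays left out it called 0 over all probe sets.

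**Figure D1:**
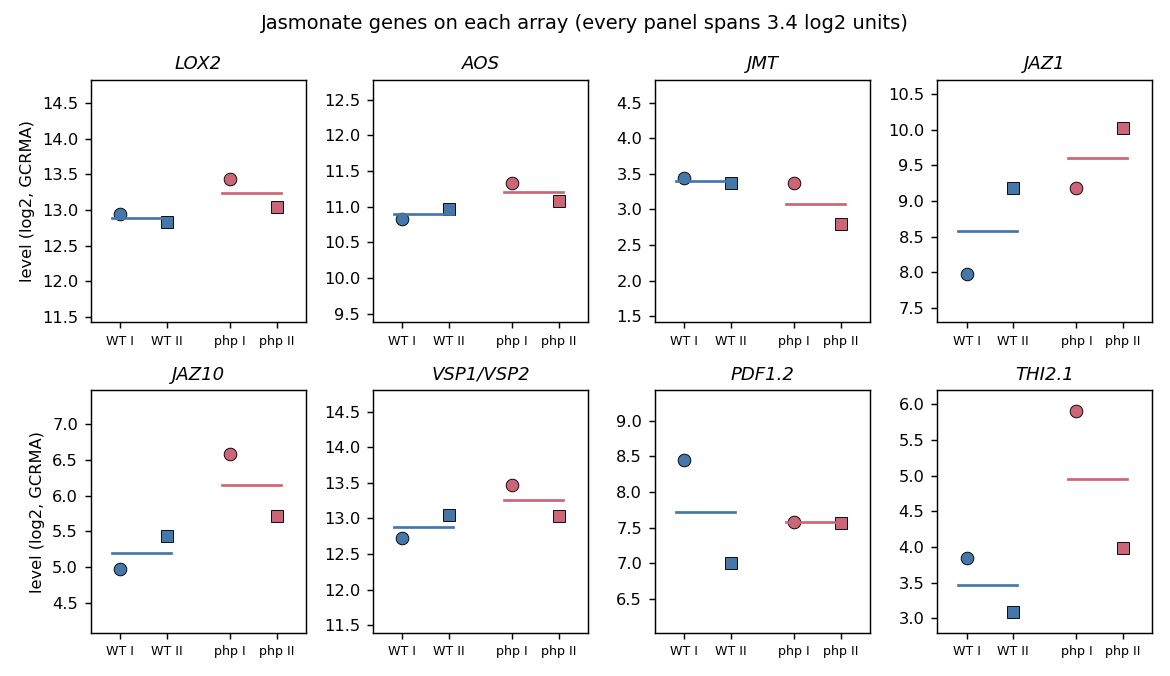
Log2 level (vertical axis, GCRMA) of each of the 8 jasmonate entries on the 4 arrays (horizontal axis). Circles are replicate I, squares replicate II, blue wild-type and red php, horizontal lines are group means, and all panels span the same number of log2 units. LOX2, AOS, JAZ10, VSP1/VSP2 and THI2.1 have their highest point on php I, and JAZ1 on php II.

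LOX2, the chloroplast lipoxygenase gene, was at 12.94 and 12.82 on wild-type I and II and at 13.43 and 13.05 on php I and II. Both php arrays lay above both wild-type arrays, with php I the highest. The log2 difference was 0.36 (SE 0.14, 95% confidence interval -0.05 to 0.76), or 1.28-fold, and it did not pass (limma adjusted p = 0.238). It was 0.17 without php I and 0.55 without php II.

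AOS, which encodes the enzyme after the lipoxygenase in the pathway, was at 10.83 on wild-type I and 10.97 on wild-type II, and at 11.33 and 11.07 on php I and II. The genotypes did not overlap, and php I was again the highest array, while php II stood 0.10 above wild-type II. The difference was 0.30 (SE 0.11, 95% confidence interval -0.01 to 0.61) and missed the threshold (limma adjusted p = 0.215). Leaving out php I brought it to 0.17.

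Of the other synthesis genes listed, OPCL1 and AIM1 are named in the annotation used. AIM1, a multifunctional protein gene of peroxisomal beta-oxidation, was at 10.54 and 10.53 in wild-type, against 10.85 and 10.85 in php. It had the smallest spread within genotypes of the jasmonate genes, at 10.54 ± 0.00 and 10.85 ± 0.00 (SD, n = 2 arrays each). Its difference of 0.31 (SE 0.04, 95% confidence interval 0.20 to 0.43) did not pass over all probe sets (limma adjusted p = 0.093), and this was the lowest adjusted p of the jasmonate genes tested. OPCL1, a ligase gene that activates a jasmonate precursor for beta-oxidation, was at 8.32 and 8.70 in wild-type, against 8.61 and 9.01 in php. Its arrays overlapped between genotypes, with replicate II the higher in each. The 4 tested synthesis genes differed by 0.30 to 0.36, with a median of 0.31, against a median of 0.01 over all probe sets tested.

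JMT encodes the methyltransferase that makes the volatile methyl jasmonate. It was at 3.44 and 3.37 in wild-type, against 3.37 and 2.80 in php. All but php II nearly coincide, and php II is close to the 2.64 below which probe sets were left out, where a difference is poorly measured. The difference was -0.32 (SE 0.21, limma adjusted p = 0.398), and it was -0.04 without php II and -0.60 without php I.

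The genes that inactivate jasmonic acid by hydroxylation were listed as well, and 4 are named in the annotation used. JOX2 (AT5G05600) was at 6.83 and 6.73 in wild-type and 8.34 and 7.47 on php I and II. Its php arrays lay above both wild-type arrays, 1.51 and 0.74 apart from the wild-type array of the same number. The difference of 1.13 (SE 0.32, 95% confidence interval 0.24 to 2.01) was 2.18-fold and did not pass over all probe sets (limma adjusted p = 0.161). JOX3, named JRG21 in the annotation, was at 5.33 and 5.06 in wild-type and 6.34 and 5.22 on php I and II, so only php I stood above both wild-type arrays. JOX4 (AT2G38240) was at 4.69 and 4.66 in wild-type, against 5.31 and 4.70 in php, where php II lay 0.03 above wild-type II. JOX1 (AT3G11180) was below the filter on all arrays, at 2.03 to 2.07, and was not tested.

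JAZ10 encodes a repressor that damps the jasmonate response and has splice forms that resist degradation, which this probe set is not known here to tell apart. It was at 4.97 and 5.43 on wild-type I and II and 6.59 and 5.71 on php I and II. The genotypes did not overlap, but most of the distance came from the replicate I arrays, 1.62 apart, against 0.27 between the replicate II arrays. The mean difference was 0.95 (SE 0.36, 95% confidence interval -0.06 to 1.95), or 1.93-fold, with a limma adjusted p = 0.222. It was 0.51 without php I and 1.39 without php II.

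JAZ1 encodes a repressor of the same family that binds MYC2. It was at 7.97 and 9.18 on wild-type I and II and at 9.18 and 10.03 on php I and II. Wild-type II and php I were level, wild-type I was the lowest and php II the highest. The php arrays were 1.21 above wild-type within replicate I and 0.85 above it within replicate II. The mean difference of 1.03 (SE 0.53, 95% confidence interval -0.44 to 2.49) was 2.04-fold and did not pass (limma adjusted p = 0.315). It was 0.42 without wild-type I, 1.63 without wild-type II and 0.60 without php II.

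The other regulators named in the annotation used were nearer to level. MYC3, a transcription factor gene held in check by JAZ proteins, was at 7.29 and 7.26 in wild-type, against 7.62 and 7.47 in php, 0.27 apart on average (SE 0.09, limma adjusted p = 0.190). Its relative MYC4 was at 7.45 and 7.19 in wild-type, against 7.05 and 7.74 in php, so its replicates diverged in opposite directions. EIN3, the ethylene transcription factor gene that also feeds the defensin branch, was at 9.67 and 9.67 against 9.88 and 9.75, 0.14 apart on average (SE 0.07, limma adjusted p = 0.278).

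The VSP1/VSP2 probe set reports the vegetative storage proteins of the MYC branch, and its suffix marks a set whose oligonucleotides match more than a single gene. It was at 12.73 and 13.05 on wild-type I and II and 13.47 and 13.04 on php I and II. The replicate II arrays were 0.01 from each other, with php I above them and wild-type I below them. The difference was 0.37 (SE 0.19, 95% confidence interval -0.17 to 0.90, limma adjusted p = 0.323), and 0.15 without php I, 0.21 without wild-type I and 0.58 without php II.

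PDF1.2, a plant defensin gene used as a marker of the ethylene-linked branch, was at 8.45 and 6.998 on wild-type I and II and 7.58 and 7.56 on php I and II. The php arrays were alike and lay between the wild-type arrays, which were 2.73-fold apart. The log2 difference was -0.15 (SE 0.52, 95% confidence interval -1.59 to 1.29, limma adjusted p = 0.876). Its direction depended on the wild-type array used, at -0.87 between the replicate I arrays and 0.57 between the replicate II arrays. PDF1.2b, a close relative whose probe set suffix marks possible cross-hybridisation, was at 7.89 and 5.94 in wild-type, against 6.76 and 6.92 in php, so the signals of the pair may not be separate measurements. PDF1.1, a further defensin gene (LCR67 in the annotation), was below the filter at 2.49 to 2.59.

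THI2.1 encodes a thionin, an antimicrobial peptide that jasmonate induces in seedlings. It was at 3.85 and 3.09 on wild-type I and II and 5.90 and 3.99 on php I and II. The genotypes did not overlap, with php II just above wild-type I and php I well above the other arrays. The difference of 1.48 (SE 0.73, 95% confidence interval -0.55 to 3.51) was the largest of the 8 entries and did not pass (limma adjusted p = 0.302). It was 2.43 without php II and 0.52 without php I. Its wild-type mean of 3.47 was close to that of JMT and near the filter, where a difference is poorly measured.

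Of the jasmonate lists, 75 loci in 6 groups, 20 loci were matched to 19 probe sets by the annotation or by the definition of the set. Of these probe sets 17 were tested, the 8 entries among them. The other loci had no probe set paired with them alone in the annotation used, which does not show that the array lacks them. They were not followed, so the lists cover only part of the pathway. limma called 0 of the 17 at an adjusted p under 0.05. An unadjusted p under 0.05 was seen for 3 of the 17, AIM1, JOX2 and MYC3, where 24.2% of all probe sets tested had such a p. The members and lists were chosen with earlier results of these data known, which limits the comparisons with all probe sets. Higher levels on both php arrays than on either wild-type array were seen for 4 of the 8 entries. They were seen for 5 of the 9 other genes, together 9 of the 17, where 33.2% of all probe sets tested were so placed. Lower levels on both php arrays were seen for 1 of the 8, JMT, against 27.4% of all. The median difference was 0.36 over the 8 entries, 0.30 over the 9 other genes and 0.31 over the 17, against 0.01 over all probe sets tested. Without php I, the php array left was above both wild-type arrays for 5 of the 8 and 12 of the 17, where 41.4% of all were.

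**Figure D2:**
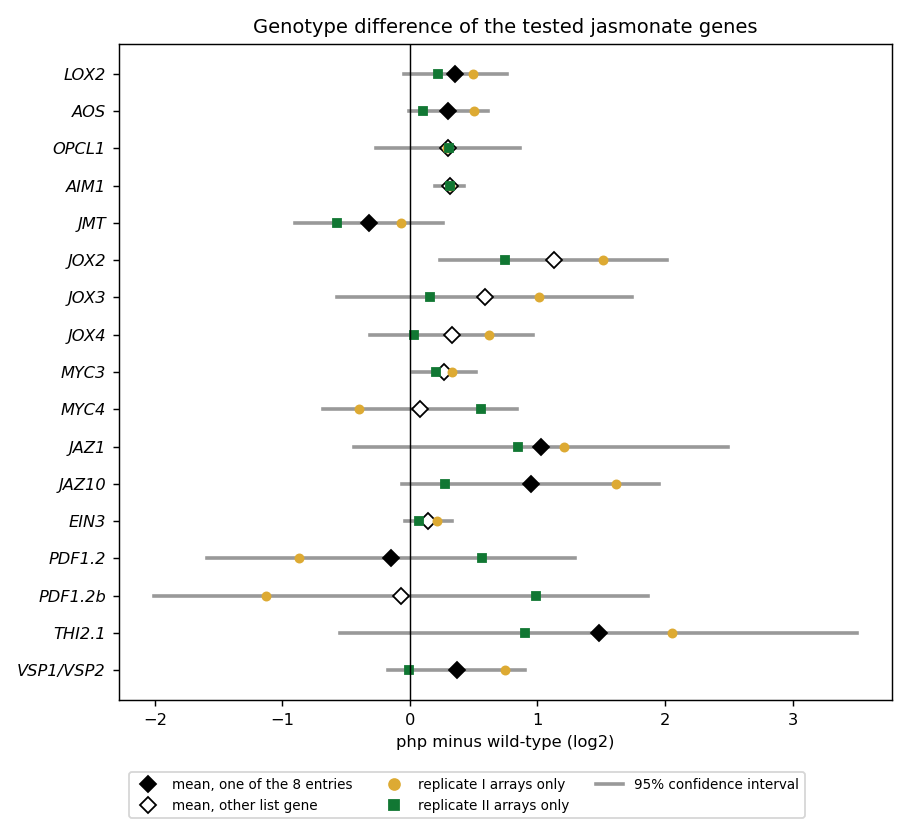
Log2 difference php minus wild-type (horizontal axis) of the 17 tested probe sets of the jasmonate lists, with the mean as a diamond, 95% confidence intervals from limma as grey bars and the difference within replicate I and replicate II as small circles and squares. Replicate I gives the larger rise in php for LOX2, AOS, JAZ1, JAZ10, MYC3, EIN3, VSP1/VSP2, THI2.1 and the tested JOX genes. PDF1.2, PDF1.2b, MYC4 and, by -0.01 in replicate II, VSP1/VSP2 have opposite signs in the replicates.

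A single array, php I, held the highest level of 5 of the 8 entries (LOX2, AOS, JAZ10, VSP1/VSP2 and THI2.1) and of 11 of the 17 tested jasmonate genes. Over all probe sets tested, php I was the highest array for 34.1%. The 6 further genes highest on php I were AIM1, JOX2, JOX3, JOX4, MYC3 and EIN3, some by a narrow margin, as for AIM1. This tally was made after the values were seen. Array php II was the highest for JAZ1, OPCL1 and MYC4, 3 of the 17 and 1 of the 8 entries, against 18.6% of all probe sets tested. Wild-type I was the highest for JMT, PDF1.2 and PDF1.2b, and wild-type II for none of the 17.

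**Figure D3:**
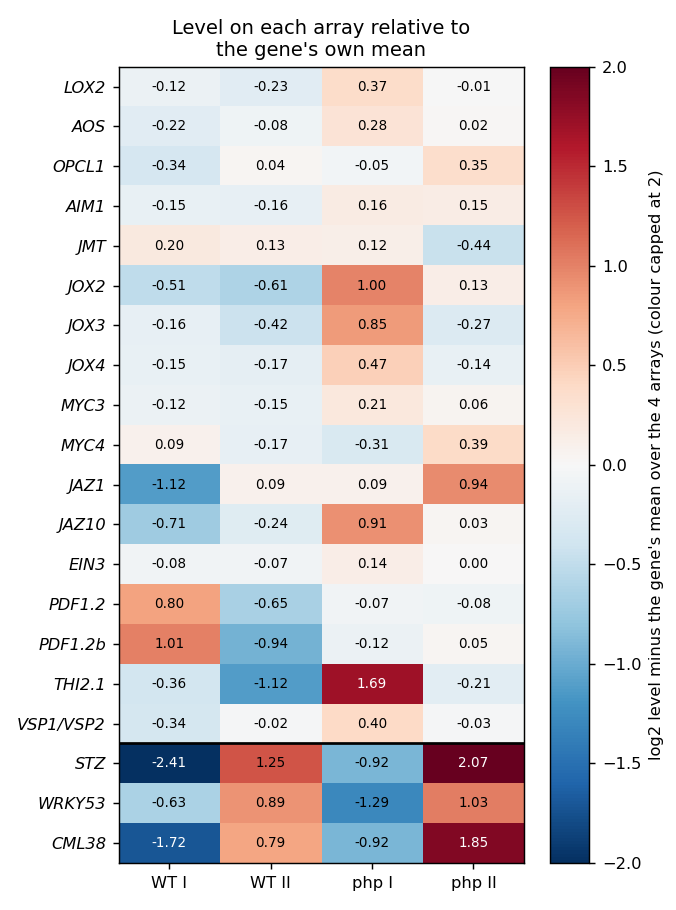
Log2 level on each array minus the gene's own mean over the 4 arrays, for the 17 tested jasmonate probe sets (above the black line) and 3 early touch and wound genes (below it), with red above and blue below the mean. JOX2, JOX3, JAZ10, THI2.1 and VSP1/VSP2 are reddest on php I. JAZ1, OPCL1 and MYC4 are highest on php II, as are the 3 touch and wound genes and 18.6% of all probe sets tested. The touch and wound genes are higher on wild-type II than on php I, whereas JAZ1 is level on both.

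Replicate II was compared with replicate I over both genotypes, with genotype in the fit. The labels do not say that a number marks a shared day or batch. limma called 0 of the 15922 probe sets, that is 0%, with 1252, or 7.86%, at an unadjusted p under 0.05. Of the 8 entries 0 were called (adjusted p from 0.476 to 0.946), and 2, JAZ1 and THI2.1, had an unadjusted p under 0.05. The total called was 10 with the lowest 50% left out, 14 with quantile normalization and 12 with median centring, and it held none of the entries tested there. With 1 residual degree of freedom, the fit leaves the spread of a single gene poorly known.

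JAZ1 was higher on replicate II in each genotype, by 1.21 in wild-type and 0.85 in php. The mean difference of 1.03 (SE 0.12, 95% confidence interval 0.64 to 1.43) was as large as that between genotypes, and it did not pass over all probe sets (limma adjusted p = 0.476). JAZ1 was the 1 entry of the 8 that was higher on replicate II in both genotypes, a placing that 23.3% of all probe sets shared. OPCL1 was the other jasmonate gene so placed, 0.38 and 0.40 higher on replicate II.

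THI2.1 went the other way, 0.75 lower on replicate II in wild-type and 1.91 lower in php. Its mean difference was -1.33 (SE 0.35, 95% confidence interval -2.51 to -0.15, limma adjusted p = 0.624). PDF1.2, LOX2 and JMT were also lower on replicate II in both genotypes, which makes 4 of the 8 entries and 9 of the 17 genes, against 36.6% of all probe sets tested. For PDF1.2 nearly all of it lay in wild-type, with -1.45 there and -0.02 in php. LOX2 differed by -0.11 in wild-type and -0.38 in php.

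AOS, JAZ10 and VSP1/VSP2 had replicates that differed in opposite directions in the genotypes. JAZ10 was 0.47 higher on replicate II in wild-type and 0.88 lower on it in php. VSP1/VSP2 was 0.32 higher and 0.43 lower, and AOS 0.14 higher and 0.26 lower. All 3 were thus lowest on wild-type I and highest on php I. Whether the replicate difference itself differs between genotypes was not tested, since each side is 1 array less another.

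**Figure D4:**
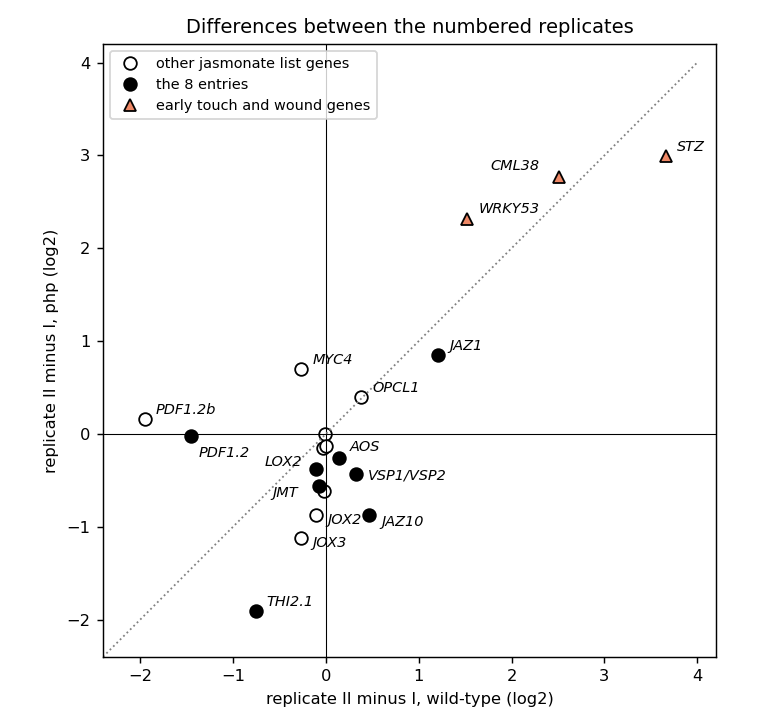
Log2 difference replicate II minus replicate I in wild-type (horizontal axis) and in php (vertical axis) for the 8 entries (black), the other tested jasmonate genes (white) and 3 early touch and wound genes (orange triangles). On the dotted line the difference is the same in both genotypes. JAZ1 and OPCL1 lie near the line and are higher on replicate II in both genotypes, as are the touch and wound genes. THI2.1 is lower on replicate II in both.

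Genes that respond within minutes to touch or wounding were listed because handling at harvest can induce them. Of 13 such loci, 3 were matched to a probe set. STZ, a zinc finger repressor gene, was at 5.66 and 9.32 on wild-type I and II and 7.15 and 10.14 on php I and II. CML38, a calmodulin-like gene, was at 5.97 and 8.48 in wild-type, against 6.77 and 9.53 in php. WRKY53, a transcription factor gene, was at 4.89 and 6.41 in wild-type, against 4.23 and 6.55 in php. All 3 were higher on replicate II in both genotypes, by a median of 2.64, where 23.3% of all probe sets tested were so placed. None passed over all probe sets (limma adjusted p = 0.245, 0.174 and 0.515). The replicate II arrays are also those on which JAZ1 was higher, and whether handling plays a part in the JAZ1 values was not tested. JAZ10 did not share this placing.

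The patterns most like those of the 4 entries that spanned at least 1 log2 unit were sought among the tested probe sets with a single annotated gene, 8888 for PDF1.2 and THI2.1 and 8889 for JAZ1 and JAZ10. Likeness was the Euclidean distance between log2 values centred on their mean over the 4 arrays, a description over 4 points. For PDF1.2 the nearest was PDF1.2b (distance 0.38), before AT1G80290 (0.42) and GSO1 (0.46), a receptor kinase gene. For JAZ1 it was EXLA1 (0.23), an expansin-like gene, at 7.74 and 8.78 in wild-type, against 8.70 and 9.49 in php, before AT4G33980 (0.34) and AT1G20823 (0.35).

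JAZ10 was most like JAL23 (distance 0.30), a jacalin-related lectin gene, at 6.56 and 6.66 in wild-type and 8.13 and 7.31 on php I and II. AT4G17470 (0.38) and AT1G62770 (0.40) came next. AT4G17470 was at 8.88 and 9.33 in wild-type, against 10.22 and 9.16 in php, so that, as with VSP1/VSP2, only php I stood above both wild-type arrays. For THI2.1 the distances were larger, with ASPGB1, an asparaginase gene, at 0.58, AT1G76640 at 0.62 and AT5G58570 at 0.74.

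The tissue label was compared with organ markers. The 5 shoot markers matched to a probe set, light-harvesting and photosystem genes, were at 9.17 to 14.55 on every array. They differed by -0.10 to 0.07 between genotypes. The 4 flower genes matched to a probe set, AMS, SPL, INO and AT5G07230, had means below the filter, with values of 1.98 to 2.67. The upper value was AT5G07230 on php I, and AMS, SPL and INO were at 1.98 to 2.29 over the 4 arrays. THI2.1, which flowers also express, was highest on php I too, as were 34.1% of all probe sets tested. Whether flower tissue plays a part in the THI2.1 level was not tested. Of the root markers, EXPA7 was at 1.91 to 1.93 and PYK10, which shoots also express, differed by 0.47 (SE 0.10, limma adjusted p = 0.115). The ribosomal RNA control probe sets were higher on the php arrays, with the large-subunit control at 5.40 and 5.50 in wild-type against 6.30 and 6.97 on php I and II, and their part in the jasmonate values was not tested. These controls were highest on php II, as were 18.6% of all probe sets tested. No probe set for PHP itself was analysed here, which leaves the genotype labels unchecked.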

How the data were processed

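Biotin-labelled RNA of 4 samples was hybridised to Affymetrix ATH1 arrays. The deposited values are log2 levels that the authors background-corrected and normalized with GCRMA, per the series' design text; MAS5 is listed in the submitters' processing notes with no role, and no version is stated. Arrays have no read depth, so their number limits the precision.

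The 64 control probe sets and the lowest 30% of plant probe sets by mean level (6824) were left out. Differences were tested with limma 3.58.1 in R 4.3.3 (lmFit, eBayes with a trend on level, two-sided, Benjamini-Hochberg over 15922 probe sets), genotype alone for php against wild-type, and genotype with replicate number for replicate II against I. The fits had 2 and 1 residual degrees of freedom. With 2 arrays against 2, exact permutation gives no two-sided p below 0.333, so p-values rest on the model. The procedure was checked on simulated data. Probe sets were named from the platform annotation and matched to loci of RefSeq TAIR10.1 by gene identifier. No coordinates are given because the array annotation states no assembly, and no sequences were used.

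The members and lists were chosen with earlier results of these data known. Named were the 8 entries, all members of the lists matched to a probe set (each had at most 6) and, for entries spanning at least 1 log2 unit, the 3 nearest patterns. Alternatives were other filters, variance models, normalizations, a replicate block, another call rule and leaving out each array. Counts of non-overlapping genes under other settings were added after the data were seen. Plots used matplotlib 3.10.9 (Python 3.11.15).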

Additional observations from a re-analysis of the deposited data

How the results depend on the processing

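Of the 156 alternative values for single entries, 149 kept their direction and stayed above the threshold or, within a single genotype and with no test, moved by less than the spread between replicates. PDF1.2 was the 1 genotype difference that turned, at 0.58 without wild-type I, within -0.88 to 0.58 over the arrays left out. The other 6 were replicate differences of AOS, JAZ10 and VSP1/VSP2 within a single genotype, given above. In wild-type these turned from below 0 to above 0, and in php they lay further below 0. Over all probe sets, the count called between genotypes was 5. It was 0 without the filter on dim probe sets, 21 with the lowest 50% left out, 9 with median centring, 122 by unadjusted p under 0.05 with at least 2-fold, and 0 with each single array left out (1913 to 4020 unadjusted). With the replicate block it was 0 in limma, with 4311 at an unadjusted p under 0.05. Of the 8 entries 3 had such a p with the block, JAZ1, THI2.1 and LOX2, against 0 without it. Of the 17 jasmonate genes 7 had it with the block and 3 without. Of all 15922 probe sets tested, 4311 had it with the block and 3856, or 24.2%, without, so the count rose over all probe sets too. The adjusted p of the 17 genes with the block was 0.137 or above. The replicate number is the only link between the arrays of a pair. Over all probe sets tested, the differences between replicates in the 2 genotypes had a correlation of r = 0.52. That correlation runs over probe sets, and these are no replicates. Between replicates the count called was 0, and 10 with the lowest 50% left out, 14 with quantile normalization, 12 with median centring and 142 by unadjusted p with 2-fold. Over all alternatives, no entry reached an adjusted p under 0.05 in limma, with a lowest value of 0.133 between genotypes, for LOX2 without php II. The entries higher on all php arrays numbered 5 or 6 of 8 when an array was left out, where 41.4% to 44.4% of all probe sets tested were so placed. They numbered 6 with quantile normalization (29.1% of all) and with median centring (39.7%), against 4 and 33.2% as deposited. Low signal limits JMT and, in wild-type, THI2.1, and neither was tested with the lowest 50% left out.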
